A study of Mus musculus with 11 samples.

Results

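The pancreas of mice with obesity-related alcohol-induced acute pancreatitis (OA-AP) was compared with that of control mice by RNA sequencing, across all genes. The 5 pancreas libraries of the 11 libraries in the series were taken by their labels, 2 from control mice and 3 from OA-AP mice. All mice were male wild-type C57BL/6 animals, labelled 16 weeks old. Control mice were kept for 12 weeks on a diet with 10 kcal% fat and then given saline. OA-AP mice were kept for 12 weeks on a diet with 60 kcal% fat and then given ethanol at 2 g/kg intraperitoneally, 2 times, 1 h apart. The tissue was taken 12 h after the first injection. Diet, ethanol and pancreatitis differed together between the groups and cannot be told apart. Each library is a separately labelled sample, and p-values measure the spread between these samples.

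Most of the exocrine pancreas is made of acinar cells, which synthesise digestive enzymes on a large rough endoplasmic reticulum (ER), pack them as inactive precursors into zymogen granules and release them when cholecystokinin or acetylcholine raises calcium. In acute pancreatitis acinar cells are injured from within, lose part of their secretory program, and secrete Reg proteins, while ducts, islets, stroma and immune cells share the same tissue. Enzyme transcripts take up so much of a pancreatic library that a change in them shifts every other gene's share of the counts.

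The libraries held 14188832 to 17238919 counts on genes. The tissue label was checked with 36 digestive enzyme genes, which alone took 75.77% and 77.33% of the counts of the control libraries and 55.39%, 58.01% and 57.66% of those of the OA-AP libraries. The groups did not overlap, and the shares averaged 76.55 ± 1.1% (SD, n = 2) and 57.02 ± 1.42% (SD, n = 3). An exact two-sided permutation test gave p = 0.1, the smallest value that 2 against 3 libraries allow. In bulk tissue, fewer cells of a type and less RNA per cell cannot be told apart. To allow for this share, counts were scaled with TMM factors (trimmed mean of M values), which ran from 0.698 to 0.793 in the control libraries and from 1.11 to 1.32 in the OA-AP libraries. Levels are given as CPM, the count of a gene relative to these scaled totals, and fold changes as OA-AP over control.

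**Figure D1:**
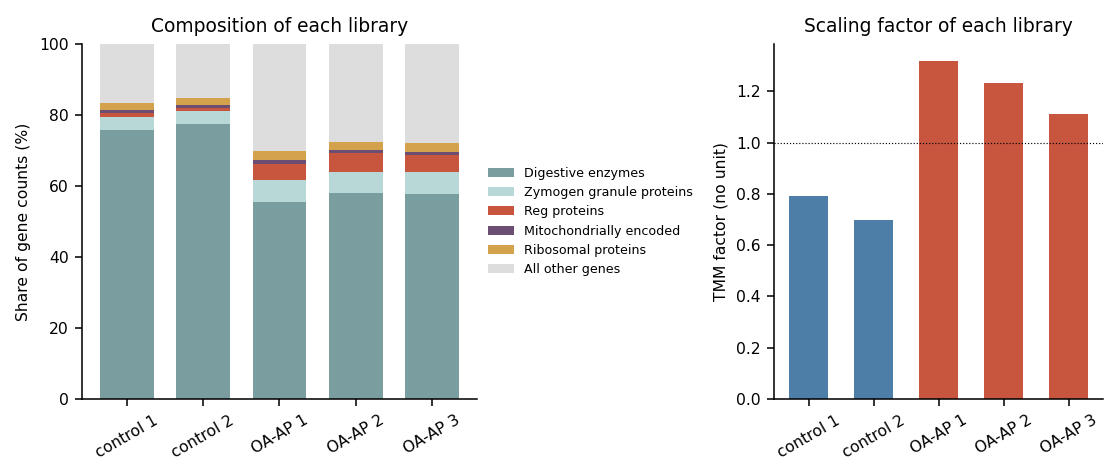
Left, share of all gene counts (%) taken by 5 gene groups and by all other genes in each library, as stacked bars. Right, TMM scaling factor of each library (no unit, dotted line at 1). Digestive enzymes fell from 76.55% to 57.02% of the counts on average, Reg proteins rose from 1.045% to 4.821%, and the factors of the control libraries lay below 1 and those of the OA-AP libraries above it.

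OA-AP library 3 stood apart from the other OA-AP libraries. The first principal component of log2 CPM took 75.41% of the variance and separated the groups, and the second took 13.37% and set OA-AP library 3 (score 40.76) against OA-AP libraries 1 and 2 (-21.49 and -31.9). Between OA-AP 3 and each of the other OA-AP libraries the chi-square of the counts per degree of freedom was 47.68 and 53.94, against 12.49 between OA-AP 1 and 2 and 6.913 between the controls. Values without OA-AP 3 are given beside the lists whose calls in either direction moved by 2 or more and by over 1.5 times.

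Of 12884 genes tested with edgeR's quasi-likelihood test, 29.8% were differentially expressed (DEGs, changed 1.5-fold or more with an adjusted p under 0.05). The share was 16.2% for upregulated and 13.5% for downregulated genes, and these percentages are the background for every list of genes that follows. The 2090 upregulated genes included 452 that rose at least 4-fold and 125 that rose at least 16-fold. The 1744 downregulated genes included 323 that fell at least 4-fold and 34 that fell at least 16-fold. The median log2 fold change over all tested genes was 0.04. Of the tested genes 912 reached the CPM cutoff of the low-count filter only in OA-AP libraries and 103 only in control libraries, so the filter itself allowed these to differ in 1 direction. In 62.3% of the tested genes the 2 groups did not overlap, with OA-AP above in 32.9% and below in 29.4%. With library totals in place of TMM factors, 92.0% of the calls were upregulations instead of 54.5%, and the median moved to 0.75, so each change is one relative to the other genes of the tissue. Without OA-AP 3 there were 2123 upregulated and 2142 downregulated DEGs, without control 1 there were 1687 DEGs in all and without control 2 there were 1495.

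**Figure D2:**
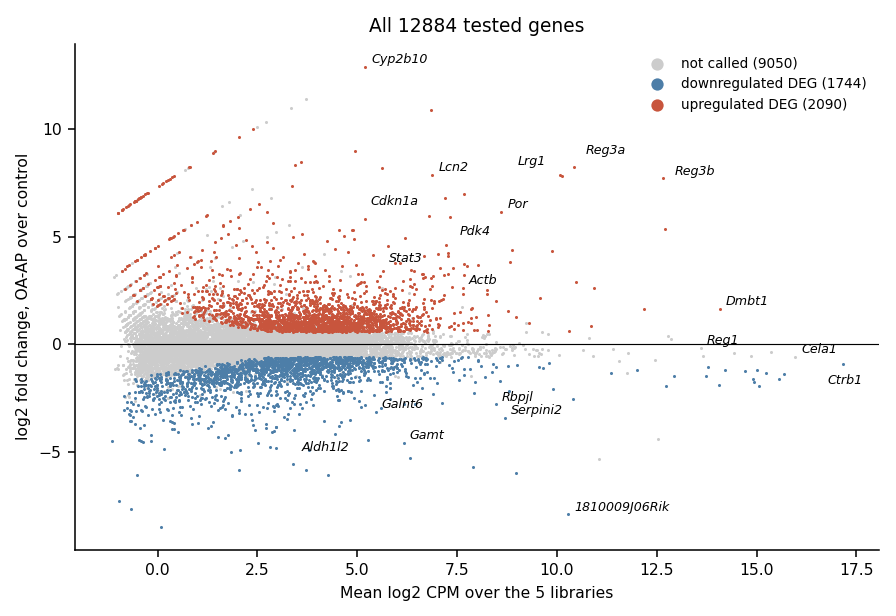
Mean log2 CPM over the 5 libraries (x axis) against the log2 fold change of OA-AP over control (y axis) for the 12884 tested genes, 1 point per gene, with upregulated DEGs (2090) in red, downregulated DEGs (1744) in blue and other genes in grey. Reg3b and Lrg1 combine a large increase with a high level, Rbpjl, Gamt and Serpini2 a large decrease. The diagonal rows at the upper left are genes with no or few control counts, whose fitted fold depends on a prior count.

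The digestive enzymes did not fall evenly. 0 of 34 tested members were upregulated and 20 downregulated (median log2 fold change -1.31). With library totals the list held 1 up and 11 down, median -0.57, and 1 up and 26 down of 34 tested without OA-AP 3. Phospholipase Pla2g1b had 2359.6 and 3021 CPM in the control libraries and 436, 437 and 508 CPM in the OA-AP libraries (log2 fold change -2.55 ± 0.17 SE, adjusted p = 9.6e-05). Pancreatic lipase Pnlip had 73601 and 89867 against 24343, 28106 and 27442 CPM (log2 fold change -1.62 ± 0.18 SE, adjusted p = 5.7e-04). Its cofactor Clps had 27919 and 32705 against 7480.1, 10832 and 6566 CPM (log2 fold change -1.87 ± 0.23 SE, adjusted p = 9.9e-04). Bile salt lipase Cel fell from 51319.6 to 16640.3 CPM and pancreatic ribonuclease Rnase1 from 22079.8 to 7834 CPM, and for all 5 of these genes every OA-AP library was below both controls. Among the 10 most abundant genes of the controls, 2 proteases also had a CPM below both controls in every OA-AP library, but their share of counts was not lower. Elastase Cela1 measured 71654 and 87718 against 53001, 51874 and 55745 CPM (log2 fold change -0.57 ± 0.17 SE, adjusted p = 0.036), which missed the fold threshold, and as a share of counts it went from 5.896% to 6.518% on average. The trypsinogen Prss2 measured 45858 and 51359 against 35183, 35013 and 43613 CPM (log2 fold change -0.36 ± 0.18 SE, adjusted p = 0.16) and took 3.606% of the control and 4.595% of the OA-AP counts. Ranked by share of counts, Cela1 moved from rank 4 in controls to rank 2 in OA-AP and Prss2 from rank 10 to rank 3.

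Other trypsinogen genes of chromosome 6 were among the genes with the largest spread between OA-AP libraries. Prss3 measured 13136 and 14552 CPM in the control libraries and 137, 188 and 1638 CPM in the OA-AP libraries (adjusted p = 0.064). Gm5771 had 4302 and 5864 against 6.04, 9.21 and 367 CPM (adjusted p = 0.12). Every OA-AP library was below both controls, but OA-AP 3 kept levels many times those of OA-AP 1 and 2, and neither gene passed the test. For Prss1, 578 and 573 against 1.68, 1.83 and 29.97 CPM (log2 fold change -5.68 ± 1.49 SE, adjusted p = 0.048) showed the same order of libraries and passed. These genes are near-identical copies, and how the counting assigned reads that fit several copies is not stated, so their split is uncertain.

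Other products of the zymogen granule went both ways: 2 of 19 tested members were upregulated and 8 downregulated (median log2 fold change -0.40). Scaled by library totals, the list held 6 up and 6 down, median 0.31. The serpin Serpini2 (pancpin) had 894 and 929 CPM in the control libraries and 84.9, 117 and 57.2 CPM in the OA-AP libraries (log2 fold change -3.4 ± 0.28 SE, adjusted p = 2.7e-04). Trefoil factor Tff2 measured 1615 and 1932 against 442, 436 and 365 CPM (log2 fold change -2.1 ± 0.16 SE, adjusted p = 1.4e-04). The granule lectin Zg16 had 10982 and 13494 against 3424, 3800.3 and 2219.6 CPM (log2 fold change -1.96 ± 0.24 SE, adjusted p = 9.4e-04). The trypsin inhibitor Spink1 had 1105 and 1256 against 520.0, 575 and 555 CPM (log2 fold change -1.1 ± 0.14 SE, adjusted p = 9.9e-04). Against these, Dmbt1, a mucin-like scavenger protein of epithelia, rose from 7661 ± 61.3 CPM (SD, n = 2) in controls to 23580.5 ± 3544 CPM (SD, n = 3) in OA-AP (log2 fold change 1.62 ± 0.19 SE, adjusted p = 7.7e-04), and the membrane protein Cuzd1 from 1263 to 2243 CPM (log2 fold change 0.83 ± 0.17 SE, adjusted p = 0.0083). Gp2, the main membrane glycoprotein of the granule, had 6995 and 6541 against 9327, 8223 and 6161 CPM (adjusted p = 0.42). Dmbt1 alone took 0.6032% and 0.5373% of the control counts and 2.764%, 2.726% and 3.063% of the OA-AP counts.

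Among transcription factors of the acinar cell, 2 that maintain its secretory machinery fell. 2 of 15 tested members were upregulated and 5 downregulated (median log2 fold change -0.02). Scaled by library totals, the list held 7 up and 2 down, median 0.69. Rbpjl, the pancreas-specific partner of Ptf1a, measured 725 and 733 CPM in the control libraries and 84.3, 135 and 97 CPM in the OA-AP libraries (log2 fold change -2.79 ± 0.20 SE, adjusted p = 1.1e-04). Bhlha15 (Mist1), which scales the secretory machinery, measured 251 and 322 against 42, 59.6 and 26.7 CPM (log2 fold change -2.74 ± 0.32 SE, adjusted p = 0.0014). For both genes every OA-AP library was below both controls. Ptf1a itself had 14.9 and 11.1 against 11.9, 16.1 and 13.7 CPM (log2 fold change 0.09 ± 0.20 SE, adjusted p = 0.75). Nr5a2 had 47 and 35.7 against 42.6, 44.7 and 36.8 CPM (log2 fold change -0.00 ± 0.16 SE, adjusted p = 1.00), with overlapping groups. Xbp1, the factor activated by splicing in the unfolded protein response, rose from 399 to 781 CPM (log2 fold change 0.97 ± 0.24 SE, adjusted p = 0.018), and the bZIP factor Creb3l1 of secretory cells fell from 31.2 to 4.43 CPM (log2 fold change -2.82 ± 0.23 SE, adjusted p = 1.9e-04).

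The receptor through which cholecystokinin acts, Cckar, had 365 and 382 CPM in the control libraries and 167, 212 and 27.4 CPM in the OA-AP libraries. All OA-AP libraries were below both controls, OA-AP 3 lay far under the others, and the test did not call it (log2 fold change -1.46 ± 0.84 SE, adjusted p = 0.25). The muscarinic receptor Chrm3 had 9.7 and 8.97 against 10.9, 10.8 and 8.58 CPM (adjusted p = 0.68). Of the 19 tested genes of receptors and calcium handling, 3 rose and 2 fell (median log2 fold change -0.08), among them the phospholipase Plcb3 (1.58) and the calcium channel subunit Orai1 (1.31) up, and the VIP receptor Vipr1 (-1.73) down, on the log2 scale. With library totals the list held 9 up and 1 down, median 0.64, and 3 up and 4 down of 19 tested without OA-AP 3.

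Genes of protein entry into the ER fell on the TMM scale. For protein translocation and export from the ER, 1 of 47 tested members were upregulated and 23 downregulated (median log2 fold change -0.58). The translocon subunit Sec61b measured 84.1 and 96.6 against 29.7, 31.3 and 28.3 CPM (log2 fold change -1.6 ± 0.13 SE, adjusted p = 1.8e-04). The cargo receptor Lman1 had 124 and 130.3 against 43.9, 45.7 and 44.8 CPM (log2 fold change -1.51 ± 0.12 SE, adjusted p = 1.6e-04). The oligosaccharyltransferase subunit Ostc fell too (log2 fold change -1.66 ± 0.13 SE, adjusted p = 1.8e-04). With library totals this list turned to 12 up and 7 down, median 0.14. Among ER chaperones and genes of the unfolded protein response, 2 of 36 tested members were upregulated and 10 downregulated (median log2 fold change -0.31), and with library totals 9 up and 5 down, median 0.40. Creld2 had 59 and 68.7 against 18, 21.6 and 21.2 CPM (log2 fold change -1.65 ± 0.14 SE, adjusted p = 2.4e-04). The degradation factor Derl3 had 142 and 169 against 38.5, 51.4 and 49.4 CPM (log2 fold change -1.74 ± 0.16 SE, adjusted p = 2.9e-04). The proapoptotic factor Ddit3 (CHOP) had 7.29 and 7.08 against 2.26, 1.95 and 1.31 CPM (log2 fold change -1.96 ± 0.29 SE, adjusted p = 0.0021). Hspa5 (BiP), the main ER chaperone, went the other way but did not pass (341 and 409 against 579, 510.1 and 1161 CPM, adjusted p = 0.083). The sensor kinase Eif2ak3 (PERK) rose (71.6 to 162 CPM, log2 fold change 1.18 ± 0.23 SE, adjusted p = 0.0073) and the sensor Atf6 fell (69.9 to 35.2 CPM, log2 fold change -0.99 ± 0.14 SE, adjusted p = 0.0017).

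Genes of amino acid, creatine and folate metabolism held several of the large decreases. Transcripts of Atf4 (ATF4), the factor of the amino acid response, did not pass (93.4 and 98.9 against 83.8, 74.6 and 102 CPM, log2 fold change -0.15 ± 0.16 SE, adjusted p = 0.49), but of the 40 tested targets 18 fell and 6 rose (median log2 fold change -0.67, with library totals 12 up and 11 down, median 0.04). Gamt, which makes creatine, had 158 and 182 CPM in the control libraries and 6.2, 6.86 and 8.58 CPM in the OA-AP libraries (log2 fold change -4.56 ± 0.17 SE, adjusted p = 1.7e-05). Gatm, the step before it, had 452 and 472 against 88.5, 106 and 93.2 CPM (log2 fold change -2.27 ± 0.13 SE, adjusted p = 5.8e-05). The mitochondrial folate enzyme Aldh1l2 measured 88.3 and 92.8 against 3.04, 4.4 and 5.18 CPM (log2 fold change -4.43 ± 0.21 SE, adjusted p = 3.4e-05). The proline synthesis enzyme Pycr1 had 53 and 56.3 against 3.62, 5.09 and 4.81 CPM (log2 fold change -3.6 ± 0.17 SE, adjusted p = 3.4e-05). Aldh18a1 had 53.9 and 55.1 against 11.4, 13.8 and 9.78 CPM (log2 fold change -2.22 ± 0.17 SE, adjusted p = 1.3e-04). For all 5 genes every OA-AP library was below both controls. Cystathionine gamma-lyase Cth went from 17.7 to 1.09 CPM, the hormone Fgf21 from 17.2 to 1.01 CPM, asparagine synthetase Asns from 172 to 111 CPM and serine synthesis enzyme Phgdh from 134 to 87.2 CPM, and with library totals Asns and Phgdh were not lower. Nupr1, a stress protein of pancreatitis, rose from 2014 ± 66.4 CPM (SD, n = 2) in controls to 6352 ± 1548 CPM (SD, n = 3) in OA-AP (log2 fold change 1.66 ± 0.23 SE, adjusted p = 0.0014). The mTORC1 inhibitor Ddit4 had 33.6 and 31.7 against 384, 268 and 586 CPM (log2 fold change 3.66 ± 0.36 SE, adjusted p = 7.0e-04) and Cebpb, a partner of ATF4, 4.98 and 4.79 against 19.7, 16.6 and 30.6 CPM (log2 fold change 2.19 ± 0.30 SE, adjusted p = 0.0016). Thus members of one target list moved in opposite directions.

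Among aminoacyl-tRNA synthetases, which load tRNAs and include ATF4 targets, 1 of 20 tested members were upregulated and 8 downregulated (median log2 fold change -0.58), and with library totals 6 up and 2 down, median 0.13. Cars (-1.73), Yars (-1.37) and Nars (-1.2) fell on the log2 scale, whereas Vars had 49.9 and 49.9 against 152, 152 and 184 CPM (log2 fold change 1.71 ± 0.15 SE, adjusted p = 2.3e-04). Of amino acid transporters 4 of 26 rose and 7 fell (median -0.34, with library totals 9 up and 4 down, median 0.36). The glutamine carrier Slc38a5 dropped from 71.8 to 9.56 CPM (log2 fold change -2.91 ± 0.20 SE, adjusted p = 1.0e-04) and the arginine carrier Slc7a2 from 47.3 to 7.9 CPM (log2 fold change -2.59 ± 0.34 SE, adjusted p = 0.0023). Slc7a6 rose from 12.2 to 47.8 CPM (log2 fold change 1.97 ± 0.17 SE, adjusted p = 2.3e-04) and the glycine carrier Slc6a9 from 83.6 to 159 CPM (log2 fold change 0.93 ± 0.12 SE, adjusted p = 0.0013).

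Promoters of some members are shown so that the letters of 3 response elements can be read beside the values of the genes. Sequences are RefSeq windows on GRCm38.p6, found for 9634 of the tested genes by symbol. In windows of 300 bases (250 before and 50 after the start), the amino acid response element core TGATGCAA occurred on either strand in 20% of the 35 ATF4 target genes and 33.3% of the 12 synthetase genes with a window, against 0.789% of tested genes. It occurred in 3 of 15 downregulated and 1 of 5 upregulated targets. The ER stress element, CCAAT and CCACG with 9 bases of any kind between them, occurred in 30% of 30 ER chaperone genes and 0.166% of tested genes, and the interferon-stimulated response element core, GAAA repeated after 2 bases of any kind, in 53.3% of 30 interferon response genes and 3.58% of tested genes. The E-box CACGTG occurred in 50% of 12 clock output genes, 16.7% of 12 core clock genes, 33.3% of 12 synthetase genes and 11.9% of tested genes. The D-box TTANGTAA was in 1 of 12 clock output genes (8.33%), 1 of 12 core clock genes and 1.80% of tested genes. The STAT element TTCNNNGAA was in 21.1% of 38 cytokine receptor and JAK-STAT genes, 26.7% of 30 interferon response genes and 8.23% of tested genes. A match describes the letters of a window and not a bound site. The 250 bases before the start follow for 6 downregulated genes and for Nupr1, which was upregulated, and capitals mark the element, read on either strand:
Bst2 (interferon-stimulated response element, chr8:71537473-71537722, minus strand): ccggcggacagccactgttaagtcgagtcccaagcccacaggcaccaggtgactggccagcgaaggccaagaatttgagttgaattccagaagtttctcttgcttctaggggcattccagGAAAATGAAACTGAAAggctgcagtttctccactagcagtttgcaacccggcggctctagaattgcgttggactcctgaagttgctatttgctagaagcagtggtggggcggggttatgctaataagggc
Ifit3 (interferon-stimulated response element, chr19:34583279-34583528, plus strand): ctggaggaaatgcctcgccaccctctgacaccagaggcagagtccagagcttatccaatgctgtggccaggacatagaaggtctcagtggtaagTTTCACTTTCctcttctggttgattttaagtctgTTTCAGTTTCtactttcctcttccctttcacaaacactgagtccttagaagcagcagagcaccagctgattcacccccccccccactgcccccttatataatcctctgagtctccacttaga
Pycr1 (amino acid response element, chr11:120643749-120643998, minus strand): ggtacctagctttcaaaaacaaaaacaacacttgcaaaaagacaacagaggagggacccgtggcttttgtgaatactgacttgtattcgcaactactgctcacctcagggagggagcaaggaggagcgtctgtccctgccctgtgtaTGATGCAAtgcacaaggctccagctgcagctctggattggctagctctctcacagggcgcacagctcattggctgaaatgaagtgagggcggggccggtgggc
Fgf21 (amino acid response element, chr7:45615491-45615740, minus strand): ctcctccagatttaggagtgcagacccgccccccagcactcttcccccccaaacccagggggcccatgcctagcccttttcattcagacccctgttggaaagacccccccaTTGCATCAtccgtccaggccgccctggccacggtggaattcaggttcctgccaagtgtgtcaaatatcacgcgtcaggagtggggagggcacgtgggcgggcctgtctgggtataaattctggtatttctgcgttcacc
Nupr1 (amino acid response element, chr7:126625471-126625720, minus strand): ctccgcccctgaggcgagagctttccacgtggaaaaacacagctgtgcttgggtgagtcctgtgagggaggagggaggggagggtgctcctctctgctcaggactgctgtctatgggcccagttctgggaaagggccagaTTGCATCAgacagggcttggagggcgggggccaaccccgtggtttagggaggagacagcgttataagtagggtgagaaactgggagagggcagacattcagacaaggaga
Creld2 (ER stress element, chr15:88819396-88819645, plus strand): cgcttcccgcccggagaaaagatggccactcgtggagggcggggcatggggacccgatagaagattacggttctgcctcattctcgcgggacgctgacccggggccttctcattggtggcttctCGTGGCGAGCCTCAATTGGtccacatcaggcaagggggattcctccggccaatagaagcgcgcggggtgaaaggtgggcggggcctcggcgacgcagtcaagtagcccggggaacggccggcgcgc
Derl3 (ER stress element, chr10:75893148-75893397, plus strand): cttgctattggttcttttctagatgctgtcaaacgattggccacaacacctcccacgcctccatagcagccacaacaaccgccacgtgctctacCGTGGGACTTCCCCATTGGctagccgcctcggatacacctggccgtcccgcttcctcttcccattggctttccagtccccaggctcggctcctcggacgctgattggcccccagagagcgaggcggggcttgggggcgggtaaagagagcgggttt
In these windows Pycr1, Fgf21 and Nupr1 each hold the same 8 letters, in Fgf21 and Nupr1 on the opposite strand, and Pycr1 and Fgf21 fell while Nupr1 rose.

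For ribosomal protein genes, 0 of 79 tested members were upregulated and 9 downregulated (median log2 fold change -0.31), and with library totals 8 up and 0 down, median 0.40. Rps2 (-1.05) and Rpl3 (-0.92) fell on the log2 scale, and Rps6 had 574 and 579.9 against 531, 562 and 616 CPM. Of the factors that build ribosomes 13 of 49 rose and 2 fell (median 0.30, with library totals 38 up and 0 down, median 1.01). Those that rose included Rrp12 (2.21 to 8.76 CPM, log2 fold change 1.98 ± 0.22 SE, adjusted p = 6.2e-04) and Ddx21 (16.6 to 32.4 CPM, log2 fold change 0.96 ± 0.14 SE, adjusted p = 0.0019). In the proteasome 8 of 39 tested members were upregulated and 2 downregulated (median log2 fold change 0.00). Library totals gave 26 up and 1 down, median 0.73. Without OA-AP 3 there were 7 up and 4 down of 39 tested. The 8 that rose were subunits, activators or receptors of the constitutive proteasome, such as Psmd7 (0.96) and Psmd2 (0.92) on the log2 scale, and the 2 that fell were the immunoproteasome subunits Psmb10 (88.5 and 112 against 19.1, 23.8 and 22.8 CPM, log2 fold change -2.2 ± 0.16 SE, adjusted p = 1.1e-04) and Psmb9 (4.2 and 2.19 against 1.1, 1.14 and 0.628 CPM, log2 fold change -1.74 ± 0.44 SE, adjusted p = 0.019). Cytosolic heat shock genes rose more often than they fell (10 up and 2 down of 21, median 0.62). Hspa8 had 129 and 127 against 274, 269 and 353 CPM (log2 fold change 1.22 ± 0.16 SE, adjusted p = 0.0012). Hspb1 had 15.4 and 16.2 against 107, 59.7 and 292 CPM (log2 fold change 3.28 ± 0.82 SE, adjusted p = 0.040).

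**Figure D3:**
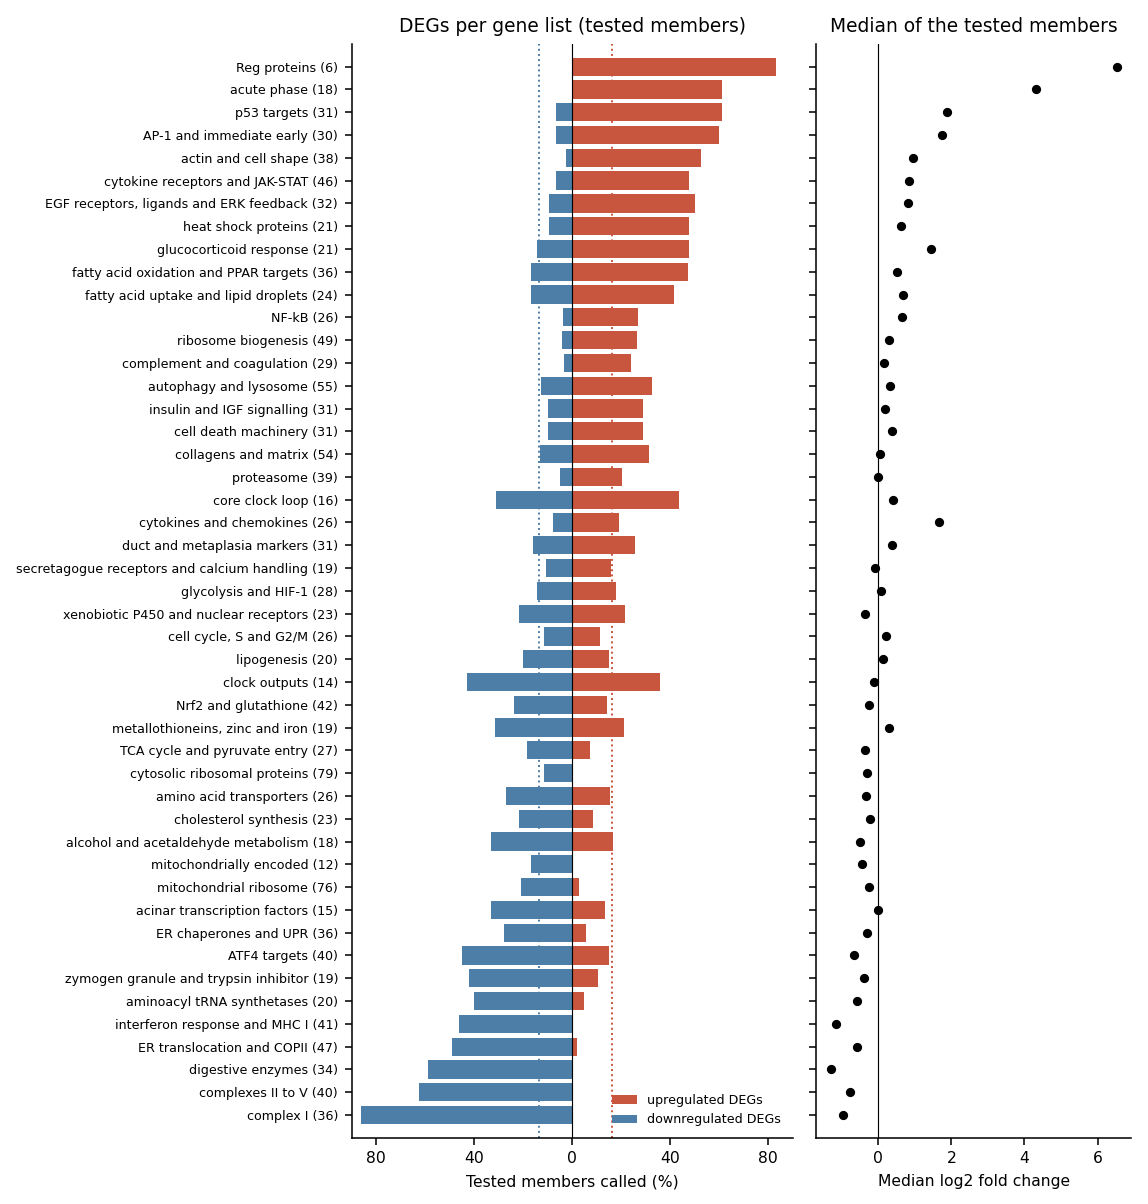
Left, share of tested members (%) of 47 gene lists that were upregulated (red, to the right) or downregulated (blue, to the left), with the number tested in brackets and dotted lines at the shares among all tested genes (16.2% and 13.5%). Right, median log2 fold change of the same members. Reg proteins, acute phase genes and p53 targets stand at the upregulated end, and complex I, complexes II to V and digestive enzymes at the downregulated end.

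Respiratory chain genes were lower on the TMM scale. For complex I, 0 of 36 tested members were upregulated and 31 downregulated (median log2 fold change -0.96), and for complexes II to V 0 of 40 tested members were upregulated and 25 downregulated (median log2 fold change -0.78). Complex I genes together took 0.06116% and 0.06116% of the counts in controls and 0.05955%, 0.05511% and 0.05216% in OA-AP, and with library totals the calls became, for complex I, 1 up and 3 down, median -0.24 and, for complexes II to V, 2 up and 7 down, median -0.07. In the chain Ndufs8 had 17.2 and 19.5 against 5.3, 5.61 and 4.86 CPM (log2 fold change -1.8 ± 0.17 SE, adjusted p = 2.9e-04). Cox7b had 45.7 and 52.9 against 13.4, 17 and 13 CPM (log2 fold change -1.77 ± 0.16 SE, adjusted p = 2.9e-04). Atp5a1 had 161 and 168 against 118, 116 and 113 CPM (log2 fold change -0.51 ± 0.12 SE, adjusted p = 0.012). Of the 12 tested genes of the mitochondrial genome 2 fell and none rose (median -0.45, with library totals 1 up and 0 down, median 0.26), and their share was 0.8093% in controls and 0.9028% in OA-AP. Without OA-AP 3 there were 0 up and 6 down of 12, with a median of -0.62. In the mitochondrial ribosome 2 of 76 tested members were upregulated and 16 downregulated (median log2 fold change -0.25), and with library totals 21 up and 2 down, median 0.46. In the citrate cycle and pyruvate entry 5 of 27 fell and 2 rose (median -0.38, with library totals 8 up and 2 down, median 0.34), with Idh2 (89.3 to 34.8 CPM, log2 fold change -1.36 ± 0.12 SE, adjusted p = 2.8e-04) and Suclg2 (37.8 to 14.3 CPM, log2 fold change -1.41 ± 0.14 SE, adjusted p = 4.0e-04) down.

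Several enzymes of fatty acid use rose. Pdk4, the kinase that closes pyruvate dehydrogenase, had 5.15 and 3.69 CPM in the control libraries and 261, 202 and 329 CPM in the OA-AP libraries (log2 fold change 5.89 ± 0.30 SE, adjusted p = 4.3e-05). Of the fatty acid oxidation genes and PPAR targets 17 of 36 tested rose and 6 fell (median log2 fold change 0.50). The uncoupling protein Ucp2 had 14 and 15.8 against 116, 106 and 145 CPM (log2 fold change 3.04 ± 0.19 SE, adjusted p = 7.4e-05). The lipase inhibitor Angptl4 had 1.46 and 0.598 against 62.5, 42.1 and 73.8 CPM (log2 fold change 5.81 ± 0.41 SE, adjusted p = 1.8e-04). Every OA-AP value lay above both controls for these 3 genes. Cpt1a, which starts the carriage of fatty acids into mitochondria, rose by 1.08 on the log2 scale, whereas the dehydrogenase Hadh fell by 1.76 and the coactivator Ppargc1a by 2.87. Among lipid uptake and droplet genes 10 of 24 tested members were upregulated and 4 downregulated (median log2 fold change 0.66). The droplet coat Plin2 had 2.15 and 2.29 against 34.2, 29.8 and 66.7 CPM (log2 fold change 4.29 ± 0.47 SE, adjusted p = 0.0013). The lipase Pnpla2 had 18 and 19.2 against 114, 86.7 and 189.7 CPM (log2 fold change 2.8 ± 0.36 SE, adjusted p = 0.0019). Lipoprotein lipase Lpl had 81.2 and 87.6 against 25.3, 33.3 and 17.9 CPM (log2 fold change -1.73 ± 0.23 SE, adjusted p = 0.0016). Adipocytes could hold some of these genes. Of 16 adipocyte markers 4 were tested (Fabp4, Lipe, Plin4 and Pparg), of which 2 rose and 0 fell (median 0.95). The summed level of these 4 was 37.8 and 53.8 CPM in controls and 74.7 to 102.8 CPM in OA-AP. The markers not tested, among them Adipoq, Lep, Plin1, Cfd and Retn, had at most 10 counts in any library. The part of adipocytes in these results was not tested.

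In fat synthesis 3 of 20 tested members were upregulated and 4 downregulated (median log2 fold change 0.13), and with library totals 7 up and 3 down, median 0.85. Of cholesterol genes 2 of 23 rose and 5 fell (median -0.23, with library totals 6 up and 3 down, median 0.46). Of the desaturases of fatty acids, Fads1 had 24.3 and 33.1 against 6.93, 7.04 and 3.92 CPM (log2 fold change -2.27 ± 0.26 SE, adjusted p = 8.8e-04). Fads2 had 11.5 and 14.8 against 2.89, 4.0 and 1.41 CPM (log2 fold change -2.25 ± 0.37 SE, adjusted p = 0.0037). Scd2 had 40.2 and 40.7 against 2.78, 6.12 and 1.36 CPM (log2 fold change -3.57 ± 0.52 SE, adjusted p = 0.0051). Fasn rose from 19.7 to 40.3 CPM (log2 fold change 1.03 ± 0.14 SE, adjusted p = 0.0013). Of the sterol genes Insig1 (-1.69), Lss (-1.61) and Sqle (-1.23) fell on the log2 scale. In glycolysis and the HIF-1 response 5 of 28 rose and 4 fell (median 0.08, with library totals 14 up and 2 down, median 0.79, without OA-AP 3 median -0.01), with Bnip3 (12.7 to 44.3 CPM, log2 fold change 1.8 ± 0.18 SE, adjusted p = 3.7e-04) and Ldha (21.6 to 56.9 CPM, log2 fold change 1.4 ± 0.19 SE, adjusted p = 0.0013) up and the glucose transporter Slc2a2 (4.55 to 1.02 CPM, log2 fold change -2.14 ± 0.37 SE, adjusted p = 0.0039) down.

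Genes that respond to glucocorticoids mostly rose where they passed. Fkbp5, a cochaperone induced by glucocorticoids, had 10.9 and 11.7 CPM in the control libraries and 236, 163 and 222 CPM in the OA-AP libraries (log2 fold change 4.2 ± 0.21 SE, adjusted p = 4.3e-05). The transcription factor Zbtb16 measured 5.23 and 11.2 against 68.9, 42.6 and 109 CPM (log2 fold change 3.17 ± 0.54 SE, adjusted p = 0.0088). The EGF receptor inhibitor Errfi1 had 15.4 and 11 against 206, 146 and 398 CPM (log2 fold change 4.24 ± 0.54 SE, adjusted p = 0.0032). Of the 21 tested glucocorticoid response genes 10 rose and 3 fell (median 1.43), and the fallen ones included the receptor itself, Nr3c1 (35 to 17.4 CPM, log2 fold change -1.01 ± 0.23 SE, adjusted p = 0.013). Not past the test were the targets Tsc22d3 (17.6 and 18.9 against 21.9, 18.8 and 10.8 CPM, adjusted p = 0.83) and Sgk1 (58.9 and 69.8 against 85.3, 37.1 and 124 CPM, adjusted p = 0.61). On the insulin side 9 of 31 tested members were upregulated and 3 downregulated (median log2 fold change 0.19). Library totals gave 19 up and 2 down, median 0.91. Irs2 had 2.49 and 3.99 against 15.4, 17.8 and 20.4 CPM (log2 fold change 2.48 ± 0.25 SE, adjusted p = 4.2e-04). The insulin receptor Insr had 45.1 and 41.6 against 94.4, 91.8 and 111 CPM (log2 fold change 1.19 ± 0.14 SE, adjusted p = 8.7e-04). The factor Foxo3 had 19.9 and 21.2 against 68.8, 63.2 and 86 CPM (log2 fold change 1.82 ± 0.17 SE, adjusted p = 3.2e-04). Igf1r rose from 17.1 to 50.7 CPM (log2 fold change 1.57 ± 0.19 SE, adjusted p = 7.9e-04). The binding protein Igfbp3 rose from 13.9 to 107 CPM and Igfbp5 fell from 21.3 to 1.91 CPM, both past the threshold.

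On the TMM scale members of the circadian clock moved in both directions. The loop couples Arntl (BMAL1) and Clock, which activate Per, Cry and Nr1d1 genes, to their own repression. Arntl had 1.97 and 0.997 CPM in the control libraries and 19.6, 11.1 and 18.6 CPM in the OA-AP libraries (log2 fold change 3.44 ± 0.38 SE, adjusted p = 7.4e-04). Its relative Npas2 had 0.257 and 0 against 4.46, 1.95 and 5.28 CPM (log2 fold change 4.75 ± 0.85 SE, adjusted p = 0.0049), so that no OA-AP library overlapped the controls. Per3 measured 13 and 23.4 against 1.31, 1.95 and 0.523 CPM (log2 fold change -3.85 ± 0.46 SE, adjusted p = 0.0013). Per2 had 12.6 and 22.6 against 5.09, 8.75 and 3.03 CPM (log2 fold change -1.65 ± 0.45 SE, adjusted p = 0.032). Nr1d1 had 40.9 and 36.3 against 17, 22.8 and 19.6 CPM (log2 fold change -0.96 ± 0.16 SE, adjusted p = 0.0032). Clock (0.21) and Per1 (-0.39) did not pass. In all 7 of 16 loop genes rose and 5 fell (median 0.41, with library totals 10 up and 1 down, median 1.11). Among outputs 5 of 14 rose and 6 fell (median -0.12, with library totals 7 up and 4 down, median 0.59): the PAR factors Tef (49.7 and 70.2 against 7.61, 18.5 and 5.75 CPM, log2 fold change -2.5 ± 0.50 SE, adjusted p = 0.015) and Hlf (0.944 and 1.7 against 0.367, 0.515 and 0.209 CPM, log2 fold change -1.83 ± 0.58 SE, adjusted p = 0.042) went down, and Nfil3, which competes for their sites, went up (0.686 and 0.997 against 9.71, 4.86 and 23.6 CPM, log2 fold change 3.92 ± 0.91 SE, adjusted p = 0.024). The clock time of tissue collection in each group is not stated, so phase and condition cannot be told apart.

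Of alcohol and acetaldehyde enzymes 3 of 18 tested members were upregulated and 6 downregulated (median log2 fold change -0.50), and with library totals 5 up and 2 down, median 0.23. Aldh2, the main acetaldehyde dehydrogenase, had 75.3 and 76.1 against 78, 70.1 and 77.2 CPM (log2 fold change -0.01 ± 0.12 SE, adjusted p = 0.96). Adh1 had 14.6 and 13.1 against 5.14, 6.64 and 7.27 CPM (log2 fold change -1.12 ± 0.20 SE, adjusted p = 0.0043). The acetate enzyme Acss1 had 18.6 and 19.2 against 3.67, 4.46 and 3.71 CPM (log2 fold change -2.26 ± 0.17 SE, adjusted p = 1.5e-04). Within the xenobiotic list (5 up and 5 down of 23, median -0.37) the gene Por, the reductase that feeds electrons to microsomal P450 enzymes, measured 8.15 and 9.87 CPM in the control libraries and 632, 531 and 767 CPM in the OA-AP libraries (log2 fold change 6.16 ± 0.25 SE, adjusted p = 1.7e-05). Cyp2b10 was at 0 counts in both controls and had 848, 384 and 2199 counts in OA-AP, a mean at least 217-fold higher than a floor of 3 counts per library. With library totals the xenobiotic list held 7 up and 2 down, median 0.36. The sulfotransferase Sult1c2 fell from 9.0 to 0.268 CPM (log2 fold change -5.02 ± 0.32 SE, adjusted p = 8.2e-05).

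Antioxidant genes went both ways. Of the 42 tested Nrf2 and glutathione genes 6 rose and 10 fell (median -0.25, with library totals 16 up and 3 down, median 0.46). Nfe2l2 (Nrf2) had 9.78 and 11.7 against 26.3, 27.5 and 38.6 CPM (log2 fold change 1.53 ± 0.21 SE, adjusted p = 0.0016). The haem oxygenase Hmox1 had 1.2 and 1.5 against 4.62, 10.2 and 20.3 CPM (log2 fold change 3.12 ± 0.76 SE, adjusted p = 0.025), but the regulatory subunit of glutathione synthesis, Gclm, had 23.8 and 22.5 against 25.9, 26.9 and 21.9 CPM (adjusted p = 0.62). Glutathione transferases Gstm2 (57.8 and 69.4 against 22.5, 20.9 and 21.2 CPM, log2 fold change -1.56 ± 0.13 SE, adjusted p = 2.4e-04), Gstp1 (-1.19) and Gstm1 (-0.91), the ER peroxidase Prdx4 (184 and 193 against 61.9, 70.8 and 56.6 CPM, log2 fold change -1.58 ± 0.14 SE, adjusted p = 2.4e-04) and Gpx1 (-1.09) fell on the log2 scale. In metal handling 4 of 19 rose and 6 fell (median 0.30, with library totals 9 up and 1 down, median 1.01), and 3 reached the filter's cutoff only in OA-AP libraries. Metallothionein Mt1 rose from 475 ± 178 CPM (SD, n = 2) in controls to 2914 ± 713 CPM (SD, n = 3) in OA-AP (log2 fold change 2.62 ± 0.31 SE, adjusted p = 0.0010) and the zinc importer Slc39a10 from 1.3 to 17.6 CPM (log2 fold change 3.76 ± 0.26 SE, adjusted p = 1.0e-04), while the zinc carriers Slc39a5 and Slc30a2, prominent in exocrine pancreas, fell from 339.5 to 153 CPM and from 21.5 to 5.94 CPM.

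Reg proteins, secreted lectins of the injured pancreas, held 3 of the 10 largest increases among well-measured DEGs (mean log2 CPM 5 or higher). Reg3b had 53.8 and 49.7 CPM in the control libraries and 9801, 11069.9 and 11327 CPM in the OA-AP libraries (log2 fold change 7.7 ± 0.23 SE, adjusted p = 6.3e-06). Reg3a had 7.12 and 8.38 against 1891, 2173 and 2824 CPM (log2 fold change 8.21 ± 0.30 SE, adjusted p = 1.5e-05). Reg3g had 6.01 and 10.5 against 1707, 1493 and 2323 CPM (log2 fold change 7.81 ± 0.39 SE, adjusted p = 4.3e-05). Reg2 had 297 and 229 against 10495, 11949 and 10208 CPM (log2 fold change 5.37 ± 0.23 SE, adjusted p = 2.3e-05). Every OA-AP library stood far above both controls. Reg1, the abundant member in healthy tissue, measured 13054 and 13810.5 against 9417, 12933 and 13049 CPM (log2 fold change -0.19 ± 0.19 SE, adjusted p = 0.48). So 5 of 6 tested members rose and the family's share of counts went from 1.045 ± 0.0571% to 4.821 ± 0.277% (SD). Reg2 moved from rank 137 to rank 17 of the tissue's genes and Reg3b from rank 734 to rank 19.

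Acute phase genes, better known from the liver, rose in 11 of 18 tested and none fell, but 12 of the 18 tested reached the filter's cutoff only in OA-AP libraries and could pass it in that direction alone. The glycoprotein Lrg1, which was in no list and is named for its size, measured 7.55 and 7.88 CPM in the control libraries and 1618, 1378 and 2404 CPM in the OA-AP libraries (log2 fold change 7.87 ± 0.35 SE, adjusted p = 3.1e-05). Lipocalin Lcn2 had 0.601 and 1.1 against 178, 101 and 306 CPM (log2 fold change 7.86 ± 0.74 SE, adjusted p = 0.0013). The serpin Serpina3n had 0.429 and 0.0997 against 113, 55.6 and 75.3 CPM (log2 fold change 8.16 ± 0.57 SE, adjusted p = 2.4e-04). Saa3 had 0.343 and 0.0997 against 14.1, 7.15 and 13.7 CPM (log2 fold change 5.62 ± 0.56 SE, adjusted p = 4.7e-04), though both families hold near-identical copies. Complement C3 had 79.3 and 29.2 against 68.5, 76.9 and 39.1 CPM (adjusted p = 0.81). Without OA-AP 3 the list held 9 up and 0 down of 15 tested. Of complement and coagulation genes 7 of 29 rose and 1 fell (median 0.14, -0.06 without OA-AP 3), including the protein C receptor Procr (4.46 and 2.99 against 71.5, 57.3 and 134 CPM, log2 fold change 4.54 ± 0.49 SE, adjusted p = 0.0014). Of these 29 genes 7 reached the filter's cutoff only in OA-AP libraries and could pass in that direction alone.

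Cytokine receptors and their factors rose in part. Of the 46 tested receptors and JAK-STAT genes 22 rose and 3 fell (median 0.85). Stat3 had 22.1 and 20.04 CPM in the control libraries and 165, 135 and 233 CPM in the OA-AP libraries (log2 fold change 3.08 ± 0.26 SE, adjusted p = 2.5e-04). The IL-22 receptor Il22ra1 had 14.8 and 14.9 against 85.7, 79.1 and 84.2 CPM (log2 fold change 2.48 ± 0.14 SE, adjusted p = 4.3e-05). The IL-6 receptor Il6ra had 14.9 and 16.2 against 89.5, 67.7 and 76 CPM (log2 fold change 2.32 ± 0.17 SE, adjusted p = 1.2e-04), with no overlap between the groups. The inhibitor Socs3 had 4.29 and 3.29 against 41.1, 32.3 and 128 CPM (log2 fold change 4.14 ± 0.86 SE, adjusted p = 0.024). Osmr had 3.69 and 3.69 against 15.9, 11.3 and 26.9 CPM (log2 fold change 2.29 ± 0.40 SE, adjusted p = 0.0056). The Fn14 receptor Tnfrsf12a had 1.46 and 1.79 against 16.3, 15.1 and 38.3 CPM (log2 fold change 3.84 ± 0.59 SE, adjusted p = 0.0047). In the NF-kB list 7 of 26 rose and 1 fell (median 0.65), and 4 of the 26 reached the filter's cutoff only in OA-AP libraries. Rela had 17.8 and 14.4 against 126, 114 and 226 CPM (log2 fold change 3.27 ± 0.35 SE, adjusted p = 0.0011). Birc3 had 6.35 and 7.78 against 33.3, 28.6 and 38.6 CPM (log2 fold change 2.25 ± 0.19 SE, adjusted p = 2.4e-04). The feedback inhibitor Nfkbia had 13.9 and 13.2 against 14.9, 13.8 and 18.5 CPM (adjusted p = 0.37). Of cytokines 5 of 26 passed upwards and 2 downwards (median 1.65, and 8 up and 2 down of 21 without OA-AP 3, median 0.52). Of the cytokines 9 reached the filter's cutoff only in OA-AP libraries. Cxcl14 (1.63 and 3.59 against 27.2, 19.7 and 37.8 CPM, log2 fold change 3.46 ± 0.42 SE, adjusted p = 0.0014) and Ccl6 (4.81 and 1.99 against 16.2, 14.2 and 27.6 CPM, log2 fold change 2.48 ± 0.45 SE, adjusted p = 0.0073) rose, and Cxcl12 fell (25.7 and 31.9 against 5.3, 5.03 and 4.55 CPM, log2 fold change -2.54 ± 0.17 SE, adjusted p = 9.2e-05).

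Interferon response and antigen presentation genes moved down where they passed, with none of 41 tested rising and 19 falling (median -1.17). With library totals the list held 4 up and 9 down, median -0.47, and 0 up and 23 down of 40 tested without OA-AP 3. The controls differed here. The summed level of the tested members was 829.8 and 621.5 CPM in controls and 387.8, 444.3 and 417.5 CPM in OA-AP. By share of counts the list took 0.06639% and 0.04348% in controls and 0.0512%, 0.05495% and 0.0464% in OA-AP, so by share control 2 was below every OA-AP library. Bst2 (tetherin) had 28.8 and 24.3 CPM in the control libraries and 5.04, 8.07 and 7.11 CPM in the OA-AP libraries (log2 fold change -1.98 ± 0.21 SE, adjusted p = 5.0e-04). Ifi27 had 212 and 145 against 22.3, 33.4 and 24.2 CPM (log2 fold change -2.75 ± 0.23 SE, adjusted p = 2.4e-04). The interferon factor Irf7 had 9.01 and 4.89 against 0.63, 1.26 and 0.732 CPM (log2 fold change -2.99 ± 0.41 SE, adjusted p = 0.0014). B2m, the light chain of MHC class I, measured 68.6 and 47.2 against 19.2, 25.6 and 19.5 CPM (log2 fold change -1.44 ± 0.20 SE, adjusted p = 0.0016). The peptide loading factor Tapbp had 21.2 and 15.8 against 9.97, 11.7 and 11.3 CPM (log2 fold change -0.75 ± 0.18 SE, adjusted p = 0.014). Ifit3 had 5.06 and 3.49 against 0.158, 0.515 and 0.314 CPM (log2 fold change -3.69 ± 0.48 SE, adjusted p = 0.0012). The OA-AP libraries were below both controls for each of these 6 genes, while the heavy chain H2-K1 (140.4 and 123 against 100.3, 100.3 and 98.9 CPM, adjusted p = 0.040) missed the fold threshold and Irf9 did not pass (19.1 and 11.5 against 13.1, 16.4 and 16.3 CPM, adjusted p = 0.99). The receptor subunit Ifnar1 rose instead (7.39 to 14 CPM, log2 fold change 0.92 ± 0.19 SE, adjusted p = 0.0078).

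p53 targets rose in 19 of 31 tested and fell in 2 (median 1.89), and 7 of those tested reached the filter's cutoff only in OA-AP libraries. Trp53inp1 had 29.2 and 24.8 CPM in the control libraries and 302, 193 and 518 CPM in the OA-AP libraries (log2 fold change 3.64 ± 0.47 SE, adjusted p = 0.0029). The antiproliferative Btg2 had 37 and 34.8 against 471, 461 and 1335 CPM (log2 fold change 4.4 ± 0.63 SE, adjusted p = 0.0049) and the receptor Eda2r 0.0858 and 0.0997 against 9.35, 8.58 and 9.05 CPM. Both controls held 1 count of Eda2r, and the OA-AP mean was at least 32.3-fold higher than a floor of 3 counts per library. Puma (Bbc3) rose from 5.59 to 20.9 CPM (log2 fold change 1.91 ± 0.22 SE, adjusted p = 6.9e-04) and Bax from 6.55 to 15.8 CPM (log2 fold change 1.27 ± 0.20 SE, adjusted p = 0.0025). Mdm2, the feedback ubiquitin ligase, did not pass (12.9 and 15.6 against 18.2, 18.6 and 18.7 CPM, log2 fold change 0.38 ± 0.15 SE, adjusted p = 0.081). Of the wider death machinery 9 of 31 tested members were upregulated and 3 downregulated (median log2 fold change 0.38), and 4 reached the filter's cutoff only in OA-AP libraries. Library totals gave 16 up and 0 down, median 1.09. The BH3 protein Bmf (5.22 to 31.1 CPM, log2 fold change 2.58 ± 0.23 SE, adjusted p = 2.6e-04) rose with the survival factors Bcl2l1 (8.15 and 7.68 against 76.8, 46.6 and 196 CPM, log2 fold change 3.75 ± 0.79 SE, adjusted p = 0.024) and Mcl1 (87.2 to 160.4 CPM, log2 fold change 0.88 ± 0.27 SE, adjusted p = 0.045), and the caspase Casp8 (adjusted p = 0.13) did not pass. Of cell cycle genes 3 of 26 rose and 3 fell (median 0.20, with library totals 9 up and 2 down, median 0.90), and the proliferation marker Mki67 had 0.172 and 0.499 against 0.682, 0.172 and 0.68 CPM (adjusted p = 0.59). Of these 26 genes 6 reached the filter's cutoff only in OA-AP libraries and 1 only in control libraries. Cyclins Ccnd1 (7.72 and 4.59 against 1.31, 1.95 and 1.31 CPM, log2 fold change -2.02 ± 0.35 SE, adjusted p = 0.0037) and Ccnd2 (-1.28) fell.

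Autophagy genes rose in 18 of 55 tested and fell in 7 (median 0.32), and with library totals 37 up and 0 down, median 1.01. Map1lc3b, the LC3 protein of the autophagosome, measured 97.7 and 108 against 305, 253 and 391 CPM (log2 fold change 1.62 ± 0.20 SE, adjusted p = 9.5e-04). The initiating kinase Ulk1 had 26.1 and 33 against 82.2, 87.4 and 116 CPM (log2 fold change 1.69 ± 0.20 SE, adjusted p = 7.7e-04). The cargo receptor Sqstm1 (p62) had 108 and 109.9 against 182, 165 and 294 CPM (log2 fold change 0.98 ± 0.25 SE, adjusted p = 0.022). The lysosomal protease Ctsl, which degrades trypsinogen, rose from 203 ± 4.77 CPM (SD, n = 2) in controls to 593 ± 178 CPM (SD, n = 3) in OA-AP (log2 fold change 1.55 ± 0.24 SE, adjusted p = 0.0029), and Ctsb, which can activate it, had 83.1 and 76.6 against 95.6, 80.2 and 160.1 CPM (adjusted p = 0.23). Early autophagy genes Becn1 (adjusted p = 0.79) and Atg5 (adjusted p = 0.67) did not pass.

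Of actin and cell shape genes 20 of 38 rose and 1 fell (median 0.95), and 16 up and 1 down of 35 without OA-AP 3. Actg1 had 34 and 34.8 CPM in the control libraries and 275, 226 and 445 CPM in the OA-AP libraries (log2 fold change 3.2 ± 0.31 SE, adjusted p = 5.9e-04). Zyx had 10.8 and 9.27 against 45.6, 37.9 and 75.6 CPM (log2 fold change 2.4 ± 0.32 SE, adjusted p = 0.0019). Myh9 had 48.1 and 47.1 against 173, 147 and 289 CPM (log2 fold change 2.09 ± 0.30 SE, adjusted p = 0.0024), each without overlap. Keratins Krt8 (93.2 and 84.2 against 374, 241 and 729 CPM, log2 fold change 2.34 ± 0.50 SE, adjusted p = 0.018) and Krt18 (103 and 99.7 against 287, 238 and 451 CPM, log2 fold change 1.69 ± 0.27 SE, adjusted p = 0.0037), E-cadherin Cdh1 (59.6 to 296 CPM, log2 fold change 2.31 ± 0.54 SE, adjusted p = 0.024) and Epcam (18.6 to 65.7 CPM, log2 fold change 1.82 ± 0.22 SE, adjusted p = 0.0010) rose. Markers of ducts and of acinar to ductal change were mixed on the TMM scale. In this list 8 of 31 tested members were upregulated and 5 downregulated (median log2 fold change 0.36). Library totals gave 16 up and 2 down, median 1.08. Without OA-AP 3 there were 9 up and 6 down of 30, with a median of -0.02. Krt19 (14.7 and 9.07 against 20.3, 14.5 and 25.4 CPM, adjusted p = 0.081) and Sox9 (8.58 and 8.08 against 5.88, 7.72 and 4.39 CPM, adjusted p = 0.19) did not pass. Epiplakin Eppk1, a keratin linker named for its size, rose from 2.23 to 242 CPM (log2 fold change 6.76 ± 1.03 SE, adjusted p = 0.0097). In the matrix list 17 of 54 rose and 7 fell (median 0.05), and 7 of the 54 reached the filter's cutoff only in OA-AP libraries. Library totals gave 23 up and 2 down, median 0.74. The epithelial integrins Itgb4 (33.8 and 23.9 against 159.9, 147 and 202 CPM, log2 fold change 2.55 ± 0.22 SE, adjusted p = 2.3e-04) and Itga3 (1.92) and basement membrane Col4a1 (1.22) rose, and Col1a1 (9.01 and 4.49 against 4.72, 5.66 and 1.46 CPM, adjusted p = 0.32) did not pass.

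Of EGF family and ERK feedback genes 16 of 32 tested members were upregulated and 3 downregulated (median log2 fold change 0.80). Erbb2 had 3.43 and 3.69 against 18.2, 16.6 and 13 CPM (log2 fold change 2.16 ± 0.22 SE, adjusted p = 4.4e-04). Egfr had 7.12 and 8.87 against 24.5, 22.5 and 24.3 CPM (log2 fold change 1.57 ± 0.16 SE, adjusted p = 4.6e-04). Egf had 47.5 and 43.9 against 13.6, 17.1 and 13.2 CPM (log2 fold change -1.64 ± 0.16 SE, adjusted p = 3.2e-04). The phosphatase Dusp5 rose (log2 fold change 3.46 ± 0.77 SE, adjusted p = 0.018) and Dusp6 did not pass (log2 fold change 0.49 ± 0.29 SE, adjusted p = 0.22). Among immediate early genes 18 of 30 rose and 2 fell (median 1.73): Junb had 3.78 and 3.99 against 79.3, 90.9 and 184 CPM (log2 fold change 4.93 ± 0.49 SE, adjusted p = 0.0011). Klf10 had 6.78 and 7.38 against 48, 56.6 and 46.9 CPM (log2 fold change 2.83 ± 0.17 SE, adjusted p = 5.8e-05). The mRNA decay factor Zfp36 had 4.98 and 5.38 against 31.1, 32.3 and 85.3 CPM (log2 fold change 3.26 ± 0.59 SE, adjusted p = 0.011). Myc fell (32.4 and 26.5 against 17.1, 18.6 and 17.2 CPM, log2 fold change -0.74 ± 0.15 SE, adjusted p = 0.0065). Counted by family, as the deposited table annotates transcription factors, 16 of 42 bZIP factors rose and 8 fell (57.1% called), 8 of 18 forkhead factors rose and 1 fell, and 45 of 366 C2H2 zinc finger genes rose and 24 fell (18.9% called).

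Markers of other cell types were read beside these results. The summed level of the 10 tested of 18 neutrophil markers was 3.52 and 3.29 CPM in controls and 17.8, 7.27 and 116.2 CPM in OA-AP. S100a8 had 0.0858 and 0.598 CPM in the control libraries and 6.04, 0.744 and 29.6 CPM in the OA-AP libraries (adjusted p = 0.16). S100a9 had 0.257 and 0.399 against 4.09, 1.09 and 40.7 CPM (adjusted p = 0.17), and the primary granule genes Mpo and Elane had at most 2 counts in any library. Of the 10 tested markers 9 reached the filter's cutoff only in OA-AP libraries, so only an increase could be seen in them. None passed with edgeR, 7 of 10 passed with DESeq2, and without OA-AP 3 edgeR gave 2 up and 0 down of 6, with a median of 1.99. The chemokines Cxcl1 (0.0858 and 0.0997 against 1.31, 0.801 and 16.8 CPM, adjusted p = 0.14) and Cxcl5 (0 and 0 against 1.42, 0.343 and 24.4 CPM, adjusted p = 0.24) and the interleukin Il6 (0.0858 and 0 against 0.735, 0.229 and 12.6 CPM, adjusted p = 0.19) had the same order of libraries, with OA-AP 3 far above the rest. Whether the neutrophil markers take part in the other differences of OA-AP 3 was not tested.

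**Figure D4:**
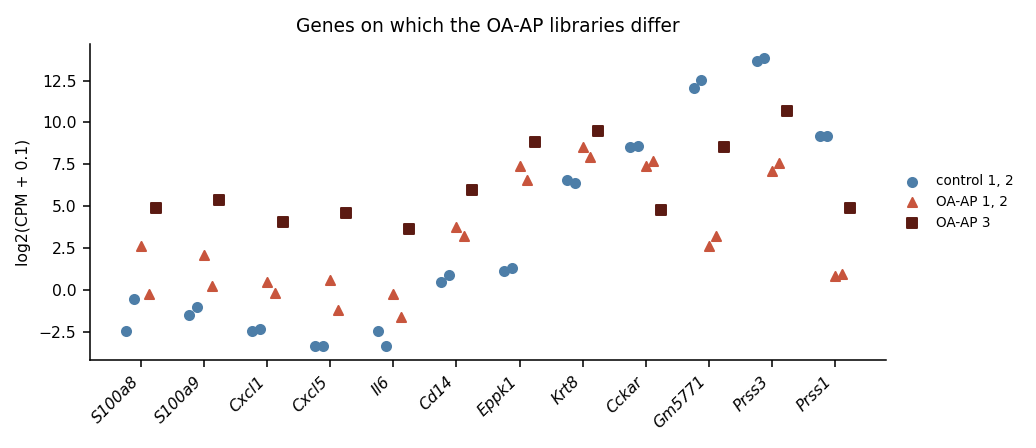
Level of 12 genes, as log2(CPM + 0.1), in each library: controls (blue circles), OA-AP 1 and 2 (red triangles) and OA-AP 3 (dark squares). OA-AP 3 is the highest library for S100a8, S100a9, the chemokines, Il6, Cd14, Eppk1 and Krt8, is below the other OA-AP libraries for Cckar, and lies between them and the controls for the trypsinogens Gm5771, Prss3 and Prss1.

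The summed level of the 16 tested of 18 macrophage markers was 103.4 and 54.3 CPM in controls and 92.8, 93.3 and 144.7 CPM in OA-AP, with 0 of 16 up and 2 down (median 0.30, with library totals 6 up and 1 down, median 0.99). Without OA-AP 3 there were 2 up and 2 down of 15, with a median of -0.09. The receptors Csf1r (10.6 and 6.08 against 3.78, 4.46 and 2.98 CPM, log2 fold change -1.16 ± 0.30 SE, adjusted p = 0.020) and Mertk (4.63 and 3.99 against 0.998, 1.03 and 1.46 CPM, log2 fold change -1.88 ± 0.33 SE, adjusted p = 0.0043) fell. Of the 16, however, 10 had a log2 fold change above 0 and 6 below. Every OA-AP library was above both controls in 5 and below both in 2, against 32.9% and 29.4% of all tested genes. Those above included Cd14 (1.29 and 1.79 against 13.4, 9.32 and 62.4 CPM, adjusted p = 0.069) and Cd163 (6.61 and 2.59 against 10.1, 7.84 and 8.58 CPM, adjusted p = 0.081), which did not pass. The immunoglobulin chain Igkc fell from 12.8 to 3.41 CPM (log2 fold change -1.91 ± 0.28 SE, adjusted p = 0.0018), with 3 of 4 tested B and plasma cell markers down (median -1.35). For endothelium 0 of 19 rose and 3 fell (median -0.25, with library totals 6 up and 0 down, median 0.46). For fibroblasts and stellate cells 0 of 16 rose and 3 fell (median -0.48, with library totals 2 up and 1 down, median 0.23). Here too the controls differed, and the summed levels of the groups overlapped (211.5 and 138.1 against 142.1, 163.6 and 114.1 CPM). Duct cell markers gave 2 decreases among 8 tested (median -0.47, with library totals 1 up and 1 down, median 0.25).

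Of the islet markers, from cells that are not acinar, 3 of 23 tested rose and 1 fell (median 0.19). Ins1 had 206 and 273 CPM in the control libraries and 348, 274 and 288 CPM in the OA-AP libraries (log2 fold change 0.34 ± 0.17 SE, adjusted p = 0.16). Ins2 had 534 and 697 against 1025, 829.8 and 891 CPM (log2 fold change 0.57 ± 0.17 SE, adjusted p = 0.037). Glucagon Gcg had 122 and 102 against 60.9, 73.9 and 132 CPM (log2 fold change -0.33 ± 0.32 SE, adjusted p = 0.46). Chga (0.79) and Iapp (0.68) rose and Pdx1, a factor of beta cells that acinar cells also express, fell (-1.0), on the log2 scale. By share of counts the islet markers went from 0.08242% and 0.0889% to 0.2308%, 0.1764% and 0.1744%, a larger difference than on the TMM scale.

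Some genes were at or under the floor of 3 counts in every library of one group. These were 238 tested genes for the controls and 15 for OA-AP. They passed the low-count filter through the other group, which fixed their direction, and their number of DEGs is no result. Among those with at most 3 control counts, the potassium channel Kcnj15 rose at least 61.9-fold, Doc2b, a calcium sensor of exocytosis, at least 58.8-fold and the vesicle protein Syt12 at least 37.4-fold over a floor of 3 counts per library. The pentraxin Ptx3, at 0 counts in both controls, had 346, 72 and 792 counts in OA-AP and did not pass with edgeR (adjusted p = 0.077), nor did Fut2 (0.172 and 0 against 8.93, 1.49 and 23.1 CPM, adjusted p = 0.068), an enzyme of epithelial glycans. Galnt6, which starts mucin-type sugar chains, fell from 94.2 ± 0.983 CPM (SD, n = 2) in controls to 10.8 ± 1.94 CPM (SD, n = 3) in OA-AP (log2 fold change -3.12 ± 0.17 SE, adjusted p = 4.3e-05). Its antisense partner Galnt6os fell from 193 to 4.95 CPM (log2 fold change -5.29 ± 0.29 SE, adjusted p = 7.4e-05), and since the strand setting of the counting is not stated the 2 genes' reads cannot be told apart.

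Genes often used as references for scaling were not all level. Of the 18 tested reference genes 2 rose and 5 fell (median -0.25, with library totals 8 up and 1 down, median 0.46). Actb rose from 49.4 to 300.3 CPM, Ywhaz from 24 to 53.6 CPM (log2 fold change 1.16 ± 0.22 SE, adjusted p = 0.0063), and Gusb (-1.07) and Ppia (-0.8) fell on the log2 scale. Hprt (10.5 and 11.2 against 12.5, 12.1 and 11.9 CPM, adjusted p = 0.41), Tbp (6.69 and 7.68 against 5.36, 6.98 and 5.13 CPM, adjusted p = 0.33) and Eef2 (1539 and 1596 against 1799, 1713 and 2231 CPM, adjusted p = 0.22) did not pass. Gapdh held 0.515 and 0.598 against 1.05, 0.686 and 2.67 CPM (adjusted p = 0.16). It has many processed pseudogenes that can share its reads.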

How the data were processed

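Total RNA of mouse pancreas was extracted with Trizol and sequenced. Per the labels and the study's methods, the authors trimmed reads with Trim Galore 0.6.6 and fastp 0.20.1, used STAR for alignment to GRCm38, and obtained gene counts from featureCounts 2.0.1. The authors deposited these as raw counts. The annotation release and the strand setting are not given in the sources used here. Of 54532 genes, 23572 had a count and 12884 passed the low-count filter (filterByExpr). Groups came from the labels, and the labels do not say whether libraries of a group came from separate animals, so the spread may be technical. Differences were tested with edgeR 4.0.16 (TMM factors, quasi-likelihood test, Benjamini-Hochberg adjustment over all tested genes, common biological coefficient of variation 0.2138), with DESeq2 1.42.0 as an alternative, both in R 4.3.3. Other scalings, filters, fold thresholds, a replicate block and leaving out each library were also tried. A DEG was changed 1.5-fold or more with an adjusted p under 0.05.

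Members, gene lists and marker lists were chosen with earlier results of these data known. Genes named were key members of the lists, the DEGs with the smallest p of each list, the 10 largest increases and decreases with a mean log2 CPM of 5 or higher, the 10 most abundant, the 10 with the largest spread in OA-AP, and abundant genes at the floor in 1 group. Aldh18a1, Atf6, Cd14, Cdh1, Clps, Creb3l1, Cth, Fabp4, Gcg, Ifnar1, Igf1r, Ins1, Ins2, Pparg, S100a8, S100a9, Tapbp and Zyx were chosen after their values were seen. On simulated counts for this comparison over 12670 genes, edgeR found 1 of 50 genes changed 1.5-fold, 21 of 50 changed 2.0-fold, 38 of 50 changed 4.0-fold and 47 of 50 changed 8.0-fold, with 7 false calls. In the simulation no other genes changed, each gene's spread followed the trend with level, and no library stood apart. The real counts differed in each of these, so the shares found need not hold for them. The floor of 3 counts covers counting error only. Promoter sequences are RefSeq's for GRCm38.p6. Adipose libraries were not used here. Some genes are not reported here.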

Additional observations from a re-analysis of the deposited data

How the results depend on the processing

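With library totals alone there were 6349 DEGs, 5843 upregulated and 506 downregulated, against 3834, 2090 and 1744 with TMM factors, and at a fold change of 2 there were 2464, of which 1291 were upregulated. DESeq2 gave 3592 and no filter on low counts 4487. Leaving out 1 library at a time gave 1495 to 4265 DEGs, 833 to 2208 upregulated and 662 to 2142 downregulated, with the lowest counts where a control was left out and the lone control was taken to vary like the OA-AP libraries. The difference in digestive enzyme share was -19.53 percentage points, -17.04 with zymogen granule genes added, -14.74 for the 10 most abundant control genes, and -20.31 to -18.72 without 1 library. Deviations of control and OA-AP libraries from their group means correlated from -0.041 to 0.041, with mirrored signs because 2 controls deviate equally and oppositely. So few libraries cannot show whether the replicate numbers pair them. A fit with the replicate block gave 4099 DEGs, 2260 upregulated and 1839 downregulated. Of the list medians, taken relative to all genes, these turned sign: metallothioneins, zinc and iron (-0.22 with 10 counts in every library, -0.01 with the replicate block, -0.12 without OA-AP 1), lipogenesis (-0.02 and -0.03 without control 1 or 2), complement and coagulation (-0.35 without control 2), cell cycle (-0.15 with 10 counts in every library, -0.01 without control 1, -0.05 without OA-AP 1), collagens and matrix (-0.08 with DESeq2 and with no filter, -0.36 with 10 counts in every library, -0.12 without control 2, -0.23 without OA-AP 1, -0.12 without OA-AP 2) and macrophages (-0.11 without control 2, -0.08 without OA-AP 3). Without 1 library at a time the highest of these medians were 0.29, 0.63, 0.2, 0.39 and 0.87 for metallothioneins, complement, cell cycle, collagens and macrophages. With library totals the log2 fold changes of these genes turned above 0: Asns (0.06), Phgdh (0.08), Becn1 (0.64), Rps6 (0.69), Aldh2 (0.7), Irf9 (0.68), Nr5a2 (0.71). Of the 191 DEGs named, at least 122 kept their call under every alternative that tested them. At most 69 lost it under at least 1, with 0 reversed calls. The 69 also count Becn1, Rps6, Aldh2, Irf9 and Nr5a2, which were not DEGs with TMM factors and were called upregulated with library totals. The cause of these changes was not tested. The 2 control libraries limit the precision of every test.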
